A study of Homo sapiens with 8 samples.

Results

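H3K9ac peaks lost with butyrate are the stretches of the genome that the peak list of untreated cells holds and that the list of butyrate-treated cells leaves free. Overlapping rows of each list were merged on chromosomes 1 to 22 and X, and a control peak was called lost when it shared not even 1 bp with a butyrate peak, at any distance from genes. The members were thus chosen by the position of the peaks in these 2 H3K9ac libraries. This gave 1698 lost peaks of 22215 control peaks (7.64%). The 20517 other control peaks are called kept, and the butyrate list held 79356 merged peaks. The cells were KGN, an established human ovarian granulosa tumour line taken at passages 5 to 8, given 1 mM butyrate for 6 h or left without it for the same time. Both groups carry the changes of that 1 tumour line. Each group had 1 library each for H3K9ac, for the mark labelled H4K16ac, for nonspecific IgG and for input, so every difference given here is between single libraries and none has a replicate check.

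Acetylation of lysine 9 on histone H3 marks the nucleosomes around the start sites of active genes and lies also at active enhancers. Acetyltransferases such as KAT2A and KAT2B add the group, and class I histone deacetylases in complexes with corepressors take it off. Butyrate, a short-chain fatty acid made by gut bacteria, inhibits these deacetylases. A peak list holds only places that pass a limit, and absence from the butyrate list says that a place stayed under that limit, not that it had no signal.

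The promoters that carry the strongest lost peaks are shown first. The windows run from 250 bases before to 50 after the start, 5′ to 3′ on the gene's strand, as RefSeq gives them for GRCh38.p14. Capitals mark the bases that lie inside the lost control peak. CIC (plus strand, chr19:42268280-42268579), MRPL54 (plus strand, chr19:3762432-3762731), WDR33 (minus strand, chr2:127811122-127811421) and ZNF121 (minus strand, chr19:9584455-9584754) belong to the 12 promoters with the highest −log10 q. They are those of the 12 whose strongest lost peak covers at least 50 bases of a RefSeq window of the gene nearest its summit. Windows of a second gene at a shared promoter are not counted here. CENPU (minus strand, chr4:184734047-184734346) and NEIL3 (plus strand, chr4:177309624-177309923) were added after their values were seen, since no butyrate peak lay at either promoter.
CIC: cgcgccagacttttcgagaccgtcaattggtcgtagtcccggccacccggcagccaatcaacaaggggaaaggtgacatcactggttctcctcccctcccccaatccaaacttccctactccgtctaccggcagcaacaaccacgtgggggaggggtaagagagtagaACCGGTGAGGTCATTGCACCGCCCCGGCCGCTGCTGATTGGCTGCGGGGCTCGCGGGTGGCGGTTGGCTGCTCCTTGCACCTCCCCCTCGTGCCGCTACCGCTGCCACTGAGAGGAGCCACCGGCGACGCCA
MRPL54: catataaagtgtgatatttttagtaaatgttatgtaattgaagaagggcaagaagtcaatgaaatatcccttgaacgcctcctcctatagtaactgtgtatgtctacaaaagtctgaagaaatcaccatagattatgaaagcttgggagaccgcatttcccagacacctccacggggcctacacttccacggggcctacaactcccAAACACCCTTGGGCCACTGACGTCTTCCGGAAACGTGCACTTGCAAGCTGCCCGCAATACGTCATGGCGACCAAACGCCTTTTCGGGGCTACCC
WDR33: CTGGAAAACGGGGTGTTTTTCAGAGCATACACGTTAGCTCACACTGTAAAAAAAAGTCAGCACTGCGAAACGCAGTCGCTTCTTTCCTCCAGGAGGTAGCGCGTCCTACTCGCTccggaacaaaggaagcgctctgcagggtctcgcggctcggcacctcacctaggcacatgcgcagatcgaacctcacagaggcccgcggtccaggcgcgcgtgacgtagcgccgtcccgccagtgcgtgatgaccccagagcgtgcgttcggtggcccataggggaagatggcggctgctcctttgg
ZNF121: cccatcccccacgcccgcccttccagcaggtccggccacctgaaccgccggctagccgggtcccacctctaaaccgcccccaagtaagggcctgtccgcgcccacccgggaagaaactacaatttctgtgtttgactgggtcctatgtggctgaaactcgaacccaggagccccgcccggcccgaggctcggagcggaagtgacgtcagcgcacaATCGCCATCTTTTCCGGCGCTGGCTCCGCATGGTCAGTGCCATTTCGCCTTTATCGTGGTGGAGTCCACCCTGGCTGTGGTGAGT
CENPU: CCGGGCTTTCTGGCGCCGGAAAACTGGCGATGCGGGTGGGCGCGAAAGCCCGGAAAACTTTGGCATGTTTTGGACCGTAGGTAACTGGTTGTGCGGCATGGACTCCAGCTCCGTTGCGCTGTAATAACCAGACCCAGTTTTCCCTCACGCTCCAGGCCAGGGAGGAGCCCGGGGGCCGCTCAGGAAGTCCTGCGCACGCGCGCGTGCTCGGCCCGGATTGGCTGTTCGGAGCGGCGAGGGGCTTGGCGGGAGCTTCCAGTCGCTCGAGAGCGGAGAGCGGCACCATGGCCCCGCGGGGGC
NEIL3: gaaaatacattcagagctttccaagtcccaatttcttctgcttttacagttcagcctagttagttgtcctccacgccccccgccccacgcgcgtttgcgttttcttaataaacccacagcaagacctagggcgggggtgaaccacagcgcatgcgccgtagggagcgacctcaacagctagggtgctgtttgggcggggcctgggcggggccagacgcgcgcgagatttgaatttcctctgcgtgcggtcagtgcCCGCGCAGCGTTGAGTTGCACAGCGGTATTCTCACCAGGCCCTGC

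The capitals fall in different places. At CENPU they fill all 300 bases, at CIC, MRPL54 and ZNF121 they reach over the start and on into the gene, at NEIL3 they begin just after it, and at WDR33 they stop upstream of it. The lost peak covered 132 bases of the CIC window, 94 at MRPL54, 114 at WDR33, 85 at ZNF121 and 45 at NEIL3. The GC content was lowest at MRPL54, with 47.3%, and highest at CENPU, with 67.0%.

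Facts of the libraries bear on every count. The depth implied by the lists was 29.4 M reads with butyrate and 24.3 M in control (M, 1000000 reads), the fragment length 251 and 232 bp, and the genome-wide background pileup 2.73 and 2.09 fragments. The weakest listed summit had a pileup of 9 fragments with butyrate and 8 in control, and the lowest −log10 p was 2.97 and 3.46. The butyrate list was thus both longer and open to weaker peaks. Of 21 granulosa markers with a placed start, 11 had an H3K9ac promoter peak with butyrate and 7 in control, with FOXL2, INHA and CYP11A1 in both lists. AMH, FSHR, CYP19A1 and STAR had none in either list.

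The lost peaks were weak and narrow. Their median fold, the authors' ratio of summit pileup plus 1 to local background plus 1, was 3.52, against 5.18 for kept peaks, and their median −log10 q was 2.86 against 8.58. The median summit held 12 fragments in lost peaks and 22 in kept peaks. The median width was 298 bp in lost peaks, quartiles 247 and 387 bp, against 733 bp in kept peaks. A single summit was listed in 97.4% of lost and 50.5% of kept peaks, and 16.6% of lost but 2.79% of kept peaks had the smallest width the caller allowed, 232 bp. All lost peaks together covered 0.57 Mb, against 19.7 Mb of kept peaks. A peak is called lost only where it misses every butyrate peak, and a narrow one covers fewer bases, so width bears on the rule itself. 

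The share lost followed peak strength step by step. It was 29.0% (95% exact interval 26.8 to 31.4) among control peaks with a −log10 q under 2, 22% from 2 to 3, 14.7% from 3 to 5, 3.42% from 5 to 10, and 0.203% (0.12 to 0.321) at 10 and over. The last bin held 18 lost peaks of 8865. By width, 23.9% of peaks under 300 bp were lost, 13.6% from 300 bp to under 500 bp, 2.48% from 500 bp to under 1000 bp and 0.0533% at 1000 bp and over, which is 4 of 7510. These intervals are Clopper-Pearson intervals and cover the counting of peaks only. None of this is a test, since the peak lists chose the members.

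**Figure D1:**
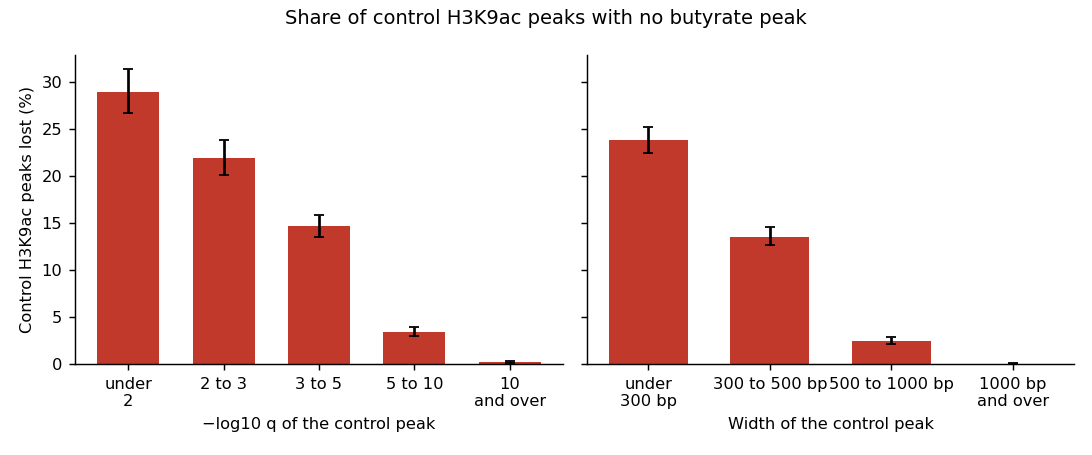
Percent of control H3K9ac peaks that had no butyrate peak, by −log10 q (left) and by width (right) of the control peak; bars are shares and whiskers exact 95% binomial intervals. The share falls at each step, to 0.203% at a −log10 q of 10 and over and to 0.0533% at 1000 bp and over.

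The summit counts were also set against the depth of the libraries. Each control summit and its local background were scaled by 1.3, the ratio of the background pileups of the butyrate and control libraries. At the scaled count itself, all 1698 lost peaks (100%) reached the lowest −log10 p of the butyrate list, 2.97. The lowest −log10 p of the control list was already higher, at 3.46. At the lower bound of the 95% Poisson interval of the count, 272 lost peaks (16%) still reached that −log10 p, against 14788 kept peaks (72.1%). The counting interval of the other lost peaks reaches below the limit of the butyrate list, and the part of counting error in the losses was not tested.

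At the edge of the rule, the lost peak near SLC31A1, a copper transporter gene, abutted a butyrate peak with a gap of 0 bp. Within 10 bp of a butyrate peak lay 20 lost peaks, and within 50 bp 112. On the other side, 3 kept peaks, near OLFML2B, TMEM138 and POLR2A, overlapped a butyrate peak by 1 bp, and 146 did so by 50 bp or less. The SLC31A1 peak had a fold of 2.68, and the peaks near OLFML2B, TMEM138 and POLR2A folds of 3.44, 3.72 and 3.25.

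Most lost peaks lay beside a butyrate peak. The median gap was 390 bp, with quartiles of 177 and 1177 bp. A butyrate peak lay within 500 bp of 954 lost peaks (56.2%, interval 53.8 to 58.6), within 1 kb of 1229 (72.4%) and within 5 kb of 1494 (88.0%). For comparison, a further butyrate peak, beside the one they overlap, lay within 1 kb of 12076 of the 20517 kept peaks (58.9%). The other 204 (12%) were more than 5 kb from any, and 41 of them more than 100 kb. Of the 1229 butyrate neighbours within 1 kb, 753 (61.3%) overlapped another control peak and 476 (38.7%) overlapped none. The first kind had a median width of 1261 bp and fold of 5.46, and the second 428 bp and 3.31. The lost peaks beside them had median folds of 3.63 and 3.43. A kept control peak lay within 1 kb of 811 lost peaks (47.8%), against a further kept peak within 1 kb of 12656 kept peaks (61.7%).

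**Figure D2:**
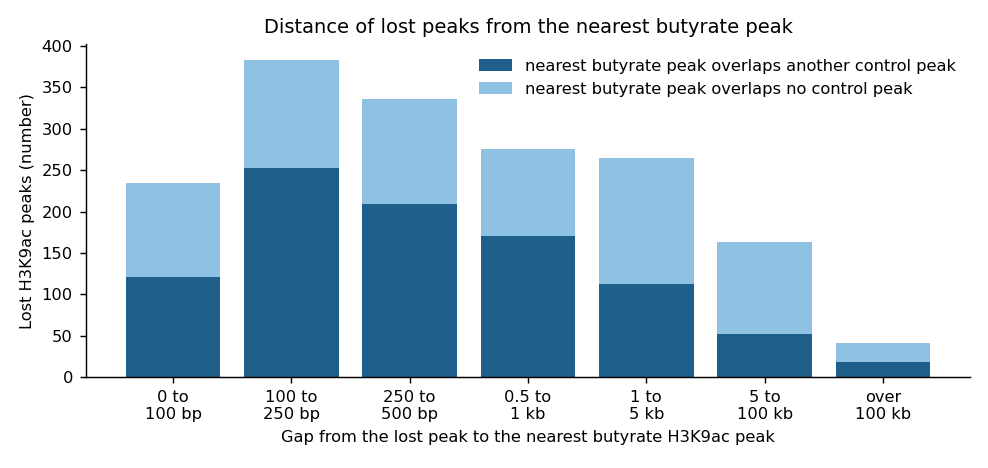
Number of lost H3K9ac peaks by the gap to the nearest butyrate H3K9ac peak; dark bars count lost peaks whose neighbour overlaps another control peak, light bars those whose neighbour overlaps none. The 954 peaks in the 3 bins up to 500 bp outnumber the 204 beyond 5 kb, and the light part is the larger one in every bin beyond 1 kb.

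Fewer lost than kept peaks lay at gene starts, and more lay in the first kilobases of genes downstream of them. A promoter, here within 1 kb of a protein-coding start, was reached by 321 lost peaks (18.9%, interval 17.1 to 20.8) and by 66.7% of kept peaks. Among kept peaks weighted to the same bins of −log10 q, the promoter share was 38.2%. The downstream flank, with the summit up to 5 kb into the gene side but no promoter contact, held 631 lost peaks (37.2%), against 11.5% of kept peaks and 26.8% of those in the same q bins. The upstream flank held 177 (10.4%), against 3.17% and 5.98%. Other gene bodies held 321 (18.9%), against 8.66% and 15.2%, and intergenic sequence 248 (14.6%), against 9.98% and 13.8%. The summit lay 1 to 5 kb downstream of a start in 663 lost peaks (39.0%, interval 36.7 to 41.4), and in 14.8% of kept peaks, or 30.0% in the same q bins. In the 500 bp after the start the order was the other way round, with 4.24% of lost and 36.1% of kept summits.

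**Figure D3:**
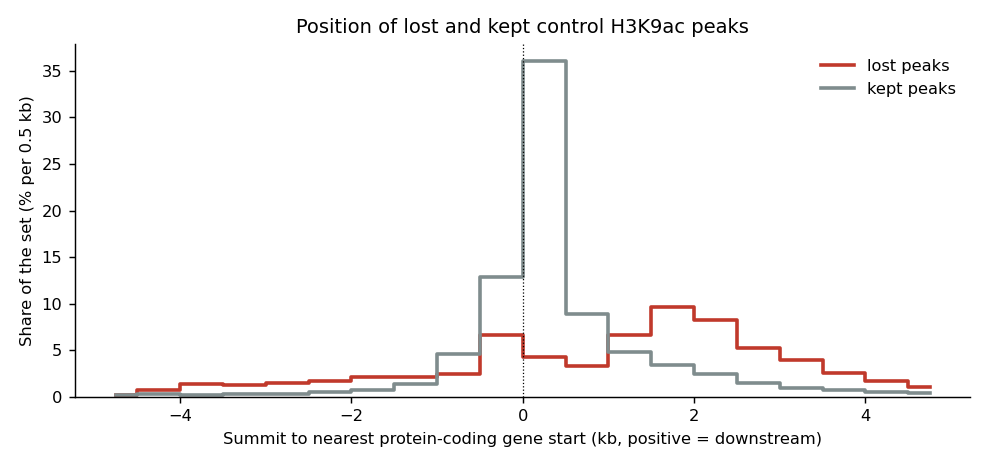
Share of lost (red) and kept (grey) control H3K9ac peaks by the distance of the summit to the nearest protein-coding gene start, in 0.5 kb steps, positive downstream. Kept peaks pile up just after the start (36.1% in the first 0.5 kb), while lost peaks are most frequent at 1.5 to 2 kb (9.66%).

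Within each bin of peak strength below 10, promoter peaks had the lowest share lost. The bins match −log10 q but not width, which also bears on the rule. Under a −log10 q of 2, 43 of 336 promoter peaks were lost (12.8%, interval 9.42 to 16.8), against 33.8% (29.9 to 37.9) in the downstream flank, 41.5% in the upstream flank, 32.1% in other gene bodies and 30.4% in intergenic sequence. From 3 to 5, the share was 7.82% (6.55 to 9.26) at promoters, against 21.4%, 24.3%, 17.7% and 15.0% in the same order. From 5 to 10, 2.31% of promoter peaks, 9.33% of downstream flank peaks and 4.67% (3.19 to 6.56) of intergenic peaks were lost. Other gene bodies, at 3.08% (1.77 to 4.96), and the upstream flank, at 4.57% (2.11 to 8.5), overlapped the promoter interval of 1.85 to 2.83. At 10 and over, the intervals of all 5 classes overlapped. The lower promoter share held where both lists were limited to folds of 5 and over, where 20.2% of promoter peaks and 27.4% of other peaks were lost. The excess 1 to 5 kb downstream did not hold there, since 17.9% of such peaks and 21.5% of the others were lost. With a butyrate peak within 1 kb counted as shared, the downstream share was 17.5% of lost and 16.6% of kept peaks.

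**Figure D4:**
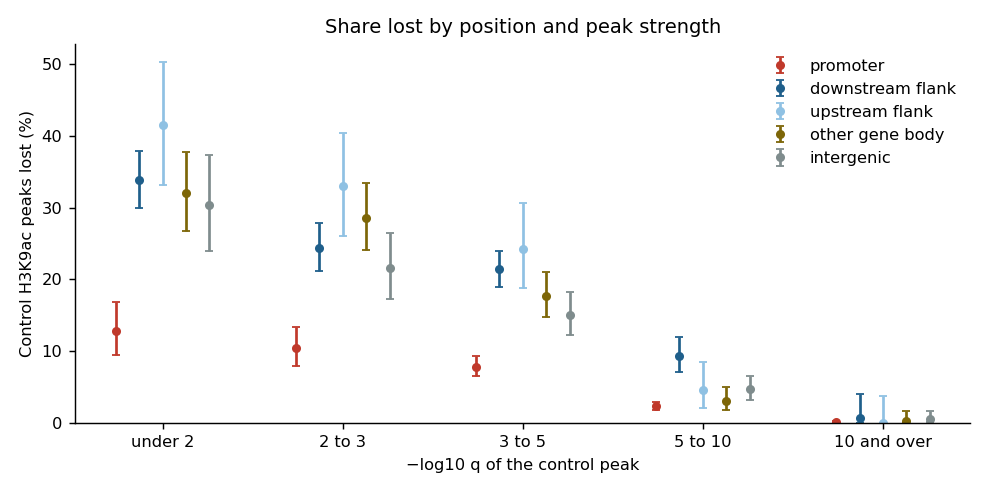
Percent of control H3K9ac peaks lost by position class within bins of −log10 q; points are shares and whiskers exact 95% binomial intervals. Promoter points (red) are the lowest in the 4 bins below 10, from 12.8% under 2 to 2.31% from 5 to 10.

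The nearby butyrate peak was mostly nearer to the gene start than the lost one, by the distance of the nearest edge of each. Among lost peaks with a summit 1 to 5 kb downstream and a butyrate peak within 1 kb, this held for 457 of 550 (83.1%, interval 79.7 to 86.1), and in 197 the butyrate peak covered the start. Kept peaks at that distance, set against the nearest further butyrate peak within 1 kb, had 732 of 1373 (53.3%, 50.6 to 56.0). For peaks 1 to 5 kb upstream it was 88 of 124 lost (71.0%, 62.1 to 78.8) and 221 of 388 kept peaks (57.0%, 51.9 to 61.9). Among promoter peaks with the summit upstream of the start it was 133 of 154 lost (86.4%) and 55.0% of kept peaks. With the summit downstream it was 74 of 132 lost (56.1%, 47.2 to 64.7) and 8.72% of kept peaks. In that last class 14.4% of lost and 46.7% of kept peaks covered the start themselves, where no butyrate peak can be nearer. In all of these classes the butyrate peak that a kept peak overlaps was left out, while a lost peak has none to leave out. The rule thus bears on these contrasts, and its part in them was not tested.

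At the level of genes, 354 of 10805 protein-coding genes with a control promoter peak had at least 1 promoter peak lost (3.28%). Of these, 294 had a kept promoter peak as well and 320 had a butyrate promoter peak, 26 of them by a gained peak alone. No butyrate promoter peak remained at 34 genes (0.315%).

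The 12 strongest lost promoter peaks had summit pileups of 20 to 35 fragments. A butyrate peak lay within 1 kb of 10 of them, and 9 of these 10 neighbours overlapped another control peak. The strongest was at SNX14, a sorting nexin of the endosome and lysosome system, at chr6:85594092-85594525. It ran from -667 to -234 bp relative to the start, with a pileup of 26 fragments and a fold of 8.13. The butyrate peak beside it, 15 fragments high, ran from -120 to 1151 bp, and a kept control peak of 23 fragments from -44 to 587 bp. The butyrate list thus holds the SNX14 start without the region upstream of it.

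The CIC gene encodes the transcriptional repressor capicua. Its lost peak at chr19:42268448-42268717 ran from -82 to 187 bp over the start, with 26 fragments and a fold of 7.69. Butyrate peaks of 20 and 35 fragments lay on both sides of the start, from -729 to -291 bp and from 760 to 3724 bp, and left the start free. Further lost peaks in CIC lay 6.18 kb into the gene and at -7.61 kb from another of its listed starts, with 14 and 11 fragments. MRPL54, a mitochondrial ribosomal protein, showed the same layout. The lost peak at chr19:3762638-3762908 covered its start from -44 to 226 bp with 28 fragments, between butyrate peaks that ended at -565 bp and began at 414 bp. At ZNF121, a zinc finger gene, the lost peak of 26 fragments ran from -35 to 251 bp. On either side of it, butyrate peaks of 14 and 15 fragments lay from -440 to -130 bp and from 799 to 1446 bp. CDK11A, a kinase that has a near-identical neighbour, CDK11B, so that its reads are uncertain, lost a peak of 28 fragments from 29 to 287 bp, with a butyrate peak from -942 to -98 bp.

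WDR33, a subunit of the factor that reads the polyadenylation signal, lost its upstream peak, from -525 to -137 bp with 23 fragments. The butyrate peak at its start began at 3 bp and was 36 fragments high, next to 40 for the kept control peak. The layout at NABP1, a single-strand DNA binding protein, was alike, with the lost peak of 23 fragments from -666 to -277 bp. KMO, an enzyme of tryptophan breakdown, lost a peak of 26 fragments from -1206 to -966 bp. H2AZ1, which encodes a histone H2A variant found at promoters, lost 2 peaks inside the gene, of 20 fragments from 494 to 924 bp and of 15 fragments from -8 to 273 bp. There the only butyrate peak within 3 kb of the start lay upstream, from -990 to -294 bp, with 26 fragments.

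ZNF225 and the pair CPNE3 and RMDN1 had no butyrate peak near. The ZNF225 peak at chr19:44113431-44113770 had 35 fragments and a fold of 5.79, over a local background of 5.22 fragments, and the nearest butyrate peak was 17.5 kb away. ZNF225 belongs to a cluster of related zinc finger genes. CPNE3, a calcium-dependent phospholipid-binding protein, and RMDN1, a regulator of microtubules, share 1 divergent promoter at chr8:86514462-86515571. Its lost peak was 1110 bp wide, the widest of all, with 22 fragments and a fold of 7.44, and the nearest butyrate peak was 5.78 kb off.

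**Figure D5:**
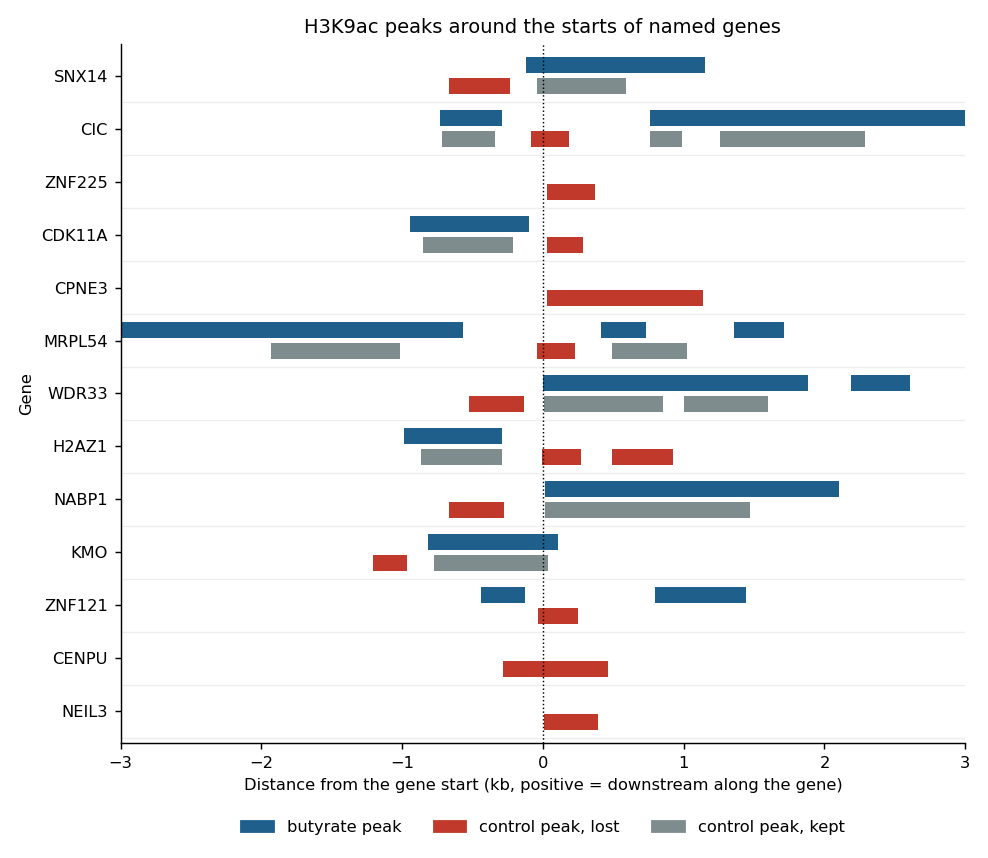
H3K9ac peaks within 3 kb of the starts of 11 of the 12 genes with the strongest lost promoter peaks and of CENPU and NEIL3, in kb along the gene from its start; the butyrate list (blue) is drawn above the control list (red lost, grey kept). At ZNF225, CPNE3, CENPU and NEIL3 there is no blue bar, and at CIC, MRPL54 and ZNF121 blue bars flank a red one at the start.

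The 34 genes with no butyrate promoter peak shared 33 lost peaks, of which STX7 had 2. Their folds ran from 2.86 to 7.44 and their pileups from 8 to 35 fragments, with a median of 12, and 8 of the peaks had a −log10 q of at least 5. The nearest butyrate peak was more than 5 kb away for 28 of them. CENPU, a centromere protein of the network that assembles on CENP-A nucleosomes, had its peak at chr4:184733634-184734380, 747 bp wide with 19 fragments and a fold of 6.47. The nearest butyrate peak was 84.2 kb away. NEIL3, a DNA glycosylase that removes oxidised bases and opens crosslinks, had 17 fragments and a fold of 5.82 at chr4:177309879-177310265, and its nearest butyrate peak lay 131.0 kb off. NRDE2, a nuclear RNA surveillance factor, followed with 18 fragments and a fold of 6.15, NXF3, an export factor gene on the X chromosome, with 16 fragments and 5.50, KANK1, a cytoskeletal adaptor, with 19 fragments and 4.67, and TP53INP1, a p53-inducible stress gene, with 14 fragments and 4.80. Apart from those the naming rule takes, the 34 genes were named after their values were seen. ZNF724 (13 fragments), DET1 (14), SLC9B1 (16), IFTAP (17), SPINK6 (14), LARP7 and ZGRF1 at 1 shared peak (12), CFAP97 (12), CDIN1 (12), ZNF492 (13) and UBA7 (12) had a −log10 q between 3.78 and 4.76. LARP7 binds the 7SK RNA that restrains transcription elongation, and UBA7 is the activating enzyme of the ubiquitin-like protein ISG15. The remaining 14 genes, among them FRG1, which has near-identical copies, TLR6, STX7, SRGN, DYRK4 and FANCF, had 8 to 13 fragments and a −log10 q of 3.26 or less. FANCF, an intronless Fanconi anaemia gene, was the weakest, with 8 fragments.

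Chromosome 4 held 9 of the 34 genes, which is 2.44% of its 369 genes with a control promoter peak, against 0.315% over all chromosomes. It also had the highest share of lost peaks, 76 of 621 (12.2%, interval 9.76 to 15.1), or 10.7% when its peaks are weighted to the q bins of the whole series. It held 1.83 times as many butyrate as control peaks, against 3.57 times over all chromosomes, and the median pileup of its peaks was 15 with butyrate and 17 in control, against 15 and 21 over all chromosomes. Low ratios were found elsewhere too, with 2.06 on chromosome 14, 2.18 on 13 and 2.39 on X. The median pileups were 14 with butyrate and 16 in control on chromosome 14, and 16 and 18 on 13. The part of these list differences in the loss was not tested. Beyond 170 Mb, where CENPU, NEIL3, CFAP97 and FRG1 lie, 9 of 39 control peaks were lost (23.1%) and the butyrate list held 46 peaks. Chromosomes 14 (11.2%), 13 (10.6%) and 20 (10.6%) followed, or 9.67%, 10.6% and 10.1% in the q bins of the whole series, and the lowest shares were on 7 (4.82%) and 19 (4.94%).

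Away from promoters, the strongest lost peak lay at chr11:118729642-118729922, -6.24 kb from the start of LOC124902766, with 25 fragments and a fold of 7.61. A butyrate peak of 1531 bp began 102 bp from it. The next, with 28 fragments, lay 22.8 kb from the start of ANXA8L1, an annexin gene with near-identical copies. In the body of GNG7, a G protein gamma subunit, a lost peak of 23 fragments lay 90 bp from a butyrate peak of 14. TXNRD1, thioredoxin reductase of the antioxidant system, had a lost peak of 20 fragments 4.17 kb into the gene, PPIG, a nuclear prolyl isomerase, one of 21 fragments at 2.13 kb, and ZNF451, a SUMO ligase, one of 19 fragments at 1.43 kb. In these 3 genes a butyrate peak lay 419, 404 and 849 bp from the lost one. The other 2 of the 8 strongest lay on chromosome 1, 691 and 673 kb from H3-7, the nearest placed start, at sites that the IgG libraries list as well.

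Peaks that IgG also lists were few. Of the lost peaks, 4 overlapped a control IgG peak and 2 of these a butyrate IgG peak, against 0 kept peaks for either list. They lie on chromosomes 1 and 16, with folds of 1.27 to 1.79 over local backgrounds of 90 to 327 fragments. Their pileups of 162 to 417 fragments were the highest of all lost peaks. These 4 are present with nonspecific antibody and were left in the counts, which come to 1694 lost peaks without them.

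The widest lost peaks after that of CPNE3 and RMDN1 were at RBM12 (1074 bp), SPINK6 (1054 bp), BICC1 (1006 bp) and TMEM144 (963 bp). RBM12 and BICC1 encode RNA-binding proteins, SPINK6 a protease inhibitor and TMEM144 a transmembrane protein. At RBM12, BICC1 and TMEM144 a butyrate peak lay 61, 101 and 80 bp away, and at SPINK6 625 bp. Their summits held 10 to 14 fragments. The farthest from any butyrate peak, at a −log10 q of 2 or more, were the IgG site 3783 kb from the start of LINC02798 (3660 kb), FRG1 (3215 kb), an intergenic peak 727 kb from RERGL (1013 kb) and one 345 kb from MAGEB5 on the X chromosome (837 kb), and the IgG site 691 kb from H3-7 (670 kb). The 3 that are not IgG sites had 11 or 12 fragments.

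Few genes held several lost peaks. In gene bodies, 1163 genes had at least 1, 75 at least 2 and 8 at least 3. SLF1, which brings the SMC5/6 complex to damaged DNA, lost 5 of 9 control peaks, with 4 butyrate peaks in the gene. All 5 lay near its far end, with summits from 74.1 to 79.1 kb after the start and 9 to 15 fragments, and a butyrate peak of 12 fragments stood among them. CNTROB, a centriole protein, lost 3 of 6, CIC 3 of 14, POP1, a subunit of RNase P, 3 of 4, and FAM200B 3 of 7. Of those 3 in the FAM200B span, 1 had the start of FBXL5 as its nearest and lay 1.87 kb downstream of it. FGD6, WDR25 and PALLD also lost 3 each. At POP1, 2 of the lost peaks followed a butyrate peak that ended 1451 bp after the start, with gaps of 25 and 545 bp.

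In 24 gene lists, 490 distinct members had a control promoter peak, 19 of them lost one and 3 of these (CENPU, NEIL3 and TP53INP1) had no butyrate promoter peak. The background over all genes was 3.28% and 0.315%. The gaps of these 19 peaks ran from 27 bp upward with a median of 230 bp, and 16 of the 19 had a butyrate peak within 1 kb. In the list of p53 targets and apoptosis, 4 of 32 marked members lost a promoter peak. MCL1, a survival factor of the BCL2 family, had a lost peak of 24 fragments that lay 27 bp from a butyrate peak of 18. The lost peak at SESN1, a stress-induced sestrin, had 13 fragments, with a butyrate peak 99 bp away, and TP53INP1 was described above. Among centromere genes 3 of 38 lost one. They are CENPU, CENPA, the histone variant of the centromere, with 14 fragments, and CENPI with 9. At CENPA a butyrate peak of 35 fragments lay 452 bp off, at the start. The replication list had 2 of 45, among them PCNA, the sliding clamp of DNA polymerase. The lost peak at PCNA had 18 fragments and lay 195 bp from a butyrate peak of 26.

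Repair genes had 2 of 41, NEIL3 and FANCD2, a Fanconi anaemia protein, whose lost peak of 16 fragments lay 84 bp from a butyrate peak. Cholesterol genes had 2 of 22, HMGCS1, an early enzyme of the pathway, and INSIG2, a brake on it, with 21 and 18 fragments and gaps of 83 and 209 bp. Single members were found in the cell cycle list (CDKN2D, an inhibitor of CDK4 and CDK6), steroidogenesis (AKR1C3, a ketosteroid reductase), TGF-beta signalling and oocyte markers (GDF9, an oocyte growth factor, whose peak also lies at the promoter of UQCRQ, a subunit of the respiratory chain), WNT signalling (FZD1, a receptor), deacetylases and acetyltransferases (NCOA1, a coactivator) and theca and stroma markers (DCN, decorin). No member of the AP-1, YAP and TEAD, inflammatory, PPAR, cyclic AMP, insulin, matrix or granulosa lists lost a promoter peak. Those lists held 25, 27, 15, 16, 23, 26, 25 and 7 marked genes, so at the background share fewer than 1 would be counted in each. The blood, endothelial, epithelial and neuron marker lists had 0 as well, of 1, 0, 3 and 2 marked genes.

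A further 42 of 649 placed list members lost a peak in the gene body and none at the promoter (6.47%), against 5.01% of all placed protein-coding genes. Of these 42, 35 had a butyrate peak within 1 kb. BMPR2, a BMP receptor, had a lost peak of 14 fragments at 2.64 kb, with the butyrate peak from -764 to 2321 bp ending 170 bp before it. ESR2, the oestrogen receptor of granulosa cells, had a lost peak of 8 fragments 1.35 kb into the gene and a butyrate peak of 21 fragments over the start. ACVR1 (90.1 kb), BMPR1A (16.3 kb), an activin and a BMP receptor, and MTOR (7.99 kb) were the exceptions with a distant butyrate peak beyond 5 kb.

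The H4K16ac lists were not used to choose the lost peaks. A control H4K16ac peak overlapped 182 lost peaks (10.7%, interval 9.29 to 12.3), against 17.5% of kept peaks, 12.5% of kept peaks in the same q bins, and 17.0% of all control H3K9ac peaks. With the summit inside the H4K16ac peak, a measure that does not grow with width, the shares were 6.36% (5.25 to 7.63) for lost and 7.62% (7.26 to 7.99) for kept peaks, or 7.48% in the same q bins, which lies within the interval of the lost peaks. A butyrate H4K16ac peak overlapped 62 lost peaks (3.65%, interval 2.81 to 4.66), against 2.33% (2.13 to 2.55) of kept peaks and 2.43% of all. In the same q bins the kept share was 2.71%, just under that interval. By the summit it was 1.77% (1.20 to 2.51) of lost peaks and 0.643% (0.539 to 0.762) of kept peaks, or 1.46% of kept peaks in the same q bins. Neither H4K16ac list touched 86.6% of lost peaks, against 81.1% of kept peaks. The 5 highest folds with control H4K16ac were at GOPC, a Golgi protein (6.15), PALLD, an actin-binding protein (5.82), MRTFA, an actin-regulated coactivator (5.49), MRPL17, a mitochondrial ribosomal protein (5.43), and NUP153, a nuclear pore protein (5.37). The H4K16ac peaks there had folds of 2.65 to 4.32, and at MRTFA a butyrate H4K16ac peak overlapped too. The shared stretch was 74 bp at GOPC and 47 bp at PALLD, where the H4K16ac peak had a −log10 q of 0.727. The H4K16ac list thus also holds peaks with a q above 0.05. Control H4K16ac peaks with a q of 0.05 or less overlapped 103 lost peaks (6.07%), and the kept share at that limit is not given. The peak names in the H4K16ac lists carry the letters k12, so the mark is called as the labels have it.

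In the promoter sequences, 142 windows of 300 bases held part of a lost peak and 10149 held kept peaks alone, of 22132 windows in all. The median GC content was 61.5% with a lost peak and 66.7% with kept peaks alone, against 62.3% over all windows. The letters TTTGAA on either strand, the core of the cell cycle gene homology region (CHR), were found in 29 windows with a lost peak (20.4%, interval 14.1 to 28.0) and in 8.23% with kept peaks alone. Over all windows it was 12.4%, and in windows with no control peak 15.9%. Without a butyrate peak in the window it was 19 of 70 (27.1%, interval 17.2 to 39.1). The CCAAT box (CCAAT) was in 44.4% of windows with a lost peak (36.0 to 52.9), against 34.5% with kept peaks alone and 34.6% of all. The letters TGACG, the shared core of the cyclic AMP response element, which every full element also holds, were in 46.5% (38.1 to 55.0), against 35.5% and 27.9%. The GC box (GGGCGG) was in 69.0% (60.7 to 76.5), against 74.9% and 56.3%. These are 4 of 14 motifs searched, picked after their values were seen, and a match of letters is no sign of a bound factor. Of the windows printed above, CIC, CENPU and NEIL3 hold CCAAT on one of the strands, and CIC, MRPL54, WDR33 and ZNF121 hold TGACG. The letters TTTGAA stand in NEIL3 alone.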

How the data were processed

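ChIP-seq peak lists of 6 of the 8 samples were used, while the 2 inputs were left out. The submitters' processing notes name CASAVA 1.7, MACS2 2.1.0 and the build hg19 (GRCh37), with aligner and duplicate filter not given in the sources used here. A list is the narrow peak call of a single library, with gene columns added by the authors. The fold (a ratio, summit pileup plus 1 over local background plus 1) and the −log10 p and −log10 q values are as the authors deposited them. The deposited score is −log10 q times 10 for H3K9ac and −log10 p times 10 for H4K16ac.

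The authors' gene starts lay a median of 42 bp from those of GRCh38.p14 in RefSeq for 10960 genes, 99.5% of them within 100 kb, so positions are read as GRCh38. Starts were printed with 1 added. Overlapping rows were merged to 1 peak, with the highest fold, the highest −log10 p and the highest −log10 q among its rows. Summit position, pileup and background are those of the row with the highest −log10 p. Pileup and background in fragments were recovered from fold and p as MACS2 computes them (tolerance 0.001 in −log10 p, 100.0% of H3K9ac peaks), and depth from the genome background at an effective genome of 2.7 Gb. Overlap and recovery code was tested on simulated data. Starts of 18916 of 19974 protein-coding genes came from RefSeq, 25259 starts in all, and 1058 genes could not be placed. Where RefSeq promoter windows lacked a gene, its RefSeq end was taken as the start by the strand in the authors' gene columns. Of the 1058 genes that could not be placed, 2 have a lost peak near an end. A peak is assigned to its nearest placed start.

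There was 1 library per condition and mark, so no test was made and intervals are exact 95% binomial or Poisson intervals, for counting error only. Fragments are not known to be independent molecules. The members, the gene lists, the motifs and the naming rule were chosen with earlier results of these data known. The rule names the 12 strongest lost promoter peaks by −log10 q, the 8 strongest elsewhere, the 5 widest, the 5 farthest from a butyrate peak, the 5 genes with most lost peaks, up to 3 members per list and the 5 highest folds on control H4K16ac. Some genes the rule takes are left out of the text. Further genes were named after their values were seen, also in the lists and at the 1 bp edge. Sequences are from RefSeq. Alternatives concern the distance or overlap that counts as shared, list strength and length, merging, the promoter window and the H4K16ac list. Python 3.11.15, pandas 2.3.3, numpy 2.4.6, scipy 1.17.1 and matplotlib 3.10.9 were used.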

Additional observations from a re-analysis of the deposited data

How the results depend on the processing

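The number of lost peaks rests on where the limits are drawn. Counting a butyrate peak within 500 bp, 1 kb or 5 kb as shared left 744, 469 and 204 lost peaks (3.35%, 2.11% and 0.918% of control peaks), with 7.66%, 7.46% and 14.2% of them at promoters, 60, 36 and 31 genes, and 30.1%, 17.5% and 1.96% at 1 to 5 kb downstream. At 5 kb, 4.9% overlapped control H4K16ac. Asking butyrate peaks to cover at least 50% of a control peak gave 2625 lost peaks (11.8%), 25.7% at promoters and 737 genes. Control peaks with a −log10 q of at least 2 gave 6.09% lost and 22% at promoters, and at least 5 gave 215 (1.47%), 47.0% at promoters, 112 genes and 26.5% downstream. With that limit of 5 in both lists it was 895 (6.12%), 58.8%, 577 genes and 17.1%. Limiting both lists to folds of 5 and over gave 21.3% lost, 80.5% at promoters, 2058 genes, 5.29% downstream and 17.1% on H4K16ac. Equal numbers of top peaks gave 4501 (20.3%), 33.5%, 1502 genes and 31.2%. Butyrate peaks at or above the lowest control −log10 p gave 8.21% lost, and unmerged rows 3.52%.

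Promoter windows of 500 bp and 2.5 kb held 12.7% and 49.1% of lost peaks, with 924 genes for the wider one, and the authors' closest-gene columns gave 12.1% and 203 genes. Control H4K16ac peaks with a q of 0.05 or less overlapped 6.07%, peaks within 1 kb 27.8%, and the summit rule, added after seeing the data like the downstream share and the count without IgG sites, gave 6.36%. The other 26 of 78 recomputed values moved by less than their interval or 1.5 times. Promoter peaks were lost less often than others under all 7 alternatives where this was compared, from 0.207% against 2.13% (5 kb) to 20.2% against 27.4% (fold of 5). The share of lost peaks 1 to 5 kb downstream, 39.0% against 14.8% of kept peaks as reported, was close to that of kept peaks when a butyrate peak within 1 kb counts as shared (17.5% against 16.6%), and below it at 5 kb (1.96% against 16.8%) and at folds of 5 and over (5.29% against 6.57%). The cause was not tested. Low pileups limit all of these counts. No paired analysis was possible because each group had 1 library.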
